A study of Mus musculus with 87 samples.

Results

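PPAR-alpha signalling, fatty acid oxidation and the outflow of fuel from the liver were followed in mouse livers after partial hepatectomy (PH) through 8 genes chosen by name: Ppara, Cpt1a, Ehhadh, Cyp4a10, Cyp4a14, Pdk4, Fgf21 and Angptl4. Each symbol was looked up in the deposited table of log2 RPKM values (reads per kilobase of transcript, scaled to the mapped reads of the library), in its protein-coding row. All 8 symbols were found, each in 1 row, among the 37991 genes of the table. All 8 also belonged to the 15396 genes that exceeded the detection threshold of -1.5 (log2 RPKM) in at least 1 library. Of these 8, Fgf21 did so in 63 of 80 libraries and the other 7 genes in all 80.

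Poly(A) RNA of individual livers from male C57BL/6 mice, 12 to 14 weeks old and without any modified allele named in the labels, was analysed for 80 of 87 labelled samples. All mice had been kept on a light and dark cycle and were fed only in the dark phase, from Zeitgeber time (ZT, hours after lights on) 12 to 24. PH, the excision of most of the liver, was performed at ZT2. The post-PH groups were X1 (1 h, ZT3, n = 6), X4 (4 h, ZT6, n = 3), X10 (10 h, ZT12, n = 6), X20 (20 h, ZT22, n = 6), X28 (28 h, ZT6, n = 3), X36 (36 h, ZT14, n = 6), X44 (44 h, ZT22, n = 3), X48 (48 h, ZT2, n = 5), X72 (72 h, ZT2, n = 3), X1W (1 week, n = 3) and X4W (4 weeks, n = 2). Sham-operated mice, whose abdomen was opened without resection, gave S1 (ZT3, n = 6), S4 (ZT6, n = 5), S10 (ZT12, n = 3), S20 (ZT22, n = 3) and S48 (ZT2, n = 3). Operated mice shared anaesthesia, pain relief and a wound, which mice without surgery lacked. The latter gave C0 (ZT2, n = 9), C4 (ZT6, n = 3) and C4W (matched to 4 weeks, n = 2). The remaining 7 labelled samples, among them the X60 group, were not analysed here. X4 was therefore reduced to replicates 4 to 6 and X4W to 2 livers. C4 shared its collection period with 1 triplicate of C0 livers and with no operated group, so that its differences from S4, X4 and X28 cannot be told apart from the period.

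PPAR-alpha, encoded by Ppara, is a nuclear receptor that binds fatty acids and their derivatives and, as a dimer with RXR-alpha (Rxra), raises the transcription of genes for fatty acid use in the fasted liver. Its known targets in hepatocytes include the gate of the mitochondrial carnitine shuttle (Cpt1a), enzymes of peroxisomal beta-oxidation such as Ehhadh, the microsomal omega-hydroxylases (Cyp4a10, Cyp4a14), a kinase that turns pyruvate away from oxidation (Pdk4), and secreted proteins that act on other tissues (Fgf21, Angptl4). Acetyl-CoA made by beta-oxidation can be turned into ketone bodies, a route in which Acat1 and Bdh1 take part, and these genes were followed as companions.

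Promoter sequences from RefSeq (assembly GRCm38.p6) were matched by symbol for 5 of the 8 genes, which were Ppara, Cpt1a, Fgf21, Pdk4 and Ehhadh. Entries for Cyp4a10, Cyp4a14 and Angptl4 were not used here. Each promoter of 300 bases (250 before and 50 after the start) was searched on both strands for AGGTCA, the half-site of nuclear receptors, for its direct repeat with a spacing of 1 base (AGGTCANAGGTCA, and the more permissive AGGNCANAGGNCA), and for CACGTG, the E-box that clock proteins bind. The half-site is contained in the strict repeat. Among 32851 mouse promoters of this length, 16.3% held AGGTCA, 7.15% CACGTG, 0.0396% the strict repeat and 0.381% the permissive repeat. The Cpt1a promoter held AGGTCA on the minus strand, read as TGACCT from base -94. The Fgf21 promoter held CACGTG from base -50. No match was found in the windows of Ppara, Pdk4 and Ehhadh, and neither repeat was found in any of the 5 windows. The 250 bases before the start are shown for the 2 genes with a match and for Pdk4 and Ehhadh, which separated PH from sham at 4 h, with the matches in capitals.

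Cpt1a, chr19:3323051-3323300, plus strand: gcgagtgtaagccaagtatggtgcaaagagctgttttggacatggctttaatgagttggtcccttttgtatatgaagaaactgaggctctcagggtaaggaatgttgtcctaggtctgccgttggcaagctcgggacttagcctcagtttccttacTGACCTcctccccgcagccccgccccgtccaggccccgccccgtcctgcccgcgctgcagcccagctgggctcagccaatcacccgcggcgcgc
Fgf21, chr7:45615491-45615740, minus strand: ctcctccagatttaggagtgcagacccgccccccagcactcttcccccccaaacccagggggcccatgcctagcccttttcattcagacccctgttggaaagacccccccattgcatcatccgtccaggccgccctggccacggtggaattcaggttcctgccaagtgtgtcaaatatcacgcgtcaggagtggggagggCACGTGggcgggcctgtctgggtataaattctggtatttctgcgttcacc
Pdk4, chr6:5496279-5496528, minus strand: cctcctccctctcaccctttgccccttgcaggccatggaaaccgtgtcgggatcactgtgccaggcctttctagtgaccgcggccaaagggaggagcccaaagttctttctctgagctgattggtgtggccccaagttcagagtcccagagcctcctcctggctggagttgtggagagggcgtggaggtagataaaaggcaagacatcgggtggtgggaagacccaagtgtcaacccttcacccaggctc
Ehhadh, chr16:21787835-21788084, minus strand: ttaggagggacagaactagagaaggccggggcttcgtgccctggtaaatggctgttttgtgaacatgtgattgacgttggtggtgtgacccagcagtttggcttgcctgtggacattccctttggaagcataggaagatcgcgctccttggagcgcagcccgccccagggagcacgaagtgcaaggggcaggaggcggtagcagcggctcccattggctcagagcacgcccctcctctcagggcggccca

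The estimated depth ran from 12.2 to 49.0 M reads per library, with a median of 26.7 M. Hepatocyte markers were abundant in every library, with Alb at 16059 to 48176 RPKM. Several markers of fat and muscle, tissues that also make Pdk4, Angptl4 and Fgf21, were at or near 0. Over all 80 libraries Adipoq reached 0.0892, Plin1 0.0468, Lep 0.00749, Ckm 0.0439 and Acta1 0.175 RPKM. Other markers of the same tissues were higher. Adrb3, an adipocyte marker, ran from 0.125 to 4.58 RPKM, and Mylpf, a muscle marker, from 0.147 to 1.01 RPKM. The highest level of Cfd, another adipocyte marker, also lay above that of Acta1. The summed level of the 7 adipocyte genes nevertheless ran from 0.633 to 133 RPKM, the highest sums being almost entirely Cidec, a lipid droplet gene that fatty hepatocytes also make. It was highest in X10, at 27.6 to 133 RPKM, against 2.42 to 4.19 RPKM in S10. The 9 C0 libraries were not uniform. Ppara stood at 9.30 to 15.4 RPKM in replicates 1 to 3, at 11.3 to 14.3 in replicates 4 to 6 and at 2.98 to 4.38 in replicates 7 to 9. Angptl4 stood at 11.7 to 19.6, 45.2 to 47.9 and 11.1 to 30.1 RPKM in the same triplicates. Differences from C0 are therefore also given against replicates 1 to 6 or 7 to 9 of C0 where that ends a call of the values named. Because whole livers were sequenced, fewer cells of a type and less RNA per cell cannot be told apart. Livers were collected in several periods, which are not tied to replicate numbers in the sources used here, so p-values measure the spread between these livers only.

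The comparison of PH with sham at the same hour and ZT asks what the resection added to the surgery. Calls needed an adjusted p under 0.05 (limma, Benjamini-Hochberg over 15396 genes) together with a log2 fold change beyond 0.5 in either direction. At 1 h, 0 of the 8 genes were called by limma and 0 had an unadjusted p under 0.05, while 0.65% of all genes were called. At 4 h Pdk4, Ehhadh and Cyp4a14 were higher after PH (3 of 8, against 8.64% of all genes), and 5 of 8 had an unadjusted p under 0.05. At 10 h Ehhadh was higher (1 of 8, against 7.02%). At 20 h Angptl4 and Ehhadh were higher (2 of 8, against 7.11%). At 48 h Cyp4a10 and Cyp4a14 were higher (2 of 8, against 27.2%, a share close to that of all genes). In none of these 5 comparisons was a member of the 8 called lower. The count at 4 h was 1 with S4 reduced to replicates 4 and 5 and 5 with S4 reduced to replicates 1 to 3, and that at 20 h was 0 without replicate 2 and 4 without replicate 4. The median log2 fold change of the 8 genes was 0.18, 0.95, 0.81, 1.08 and 0.38 in the order of these hours, beside 0.01, -0.04, 0.00, 0.07 and 0.27 over all genes.

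Marker sums of other cell types moved with some of these hours. The summed level of 7 stellate cell markers was higher after PH without overlap at 10 h (29.7 to 43.2 RPKM in S10 and 46.2 to 57.1 RPKM in X10), 20 h (32.9 to 56.2 RPKM in S20 and 57.5 to 78.1 RPKM in X20) and 48 h (47.7 to 51.8 RPKM in S48 and 59.9 to 104 RPKM in X48). That of the hepatocyte markers, led by Alb, was lower in X20 (25673 to 33989.5 RPKM) than in S20 (34404 to 37537 RPKM). At 48 h the cholangiocyte sum was higher in X48 (31.7 to 44.4 RPKM) than in S48 (19.6 to 29.5 RPKM) and the endothelial sum lower (8.82 to 11.9 RPKM in X48 and 12.3 to 12.97 RPKM in S48). The cholangiocyte sum was mostly 1 gene, Spp1, at 17.2 to 25.6 RPKM in S48 and 27.4 to 41.4 RPKM in X48. The part of these sums in the values of PH against sham was not tested.

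**Figure D1:**
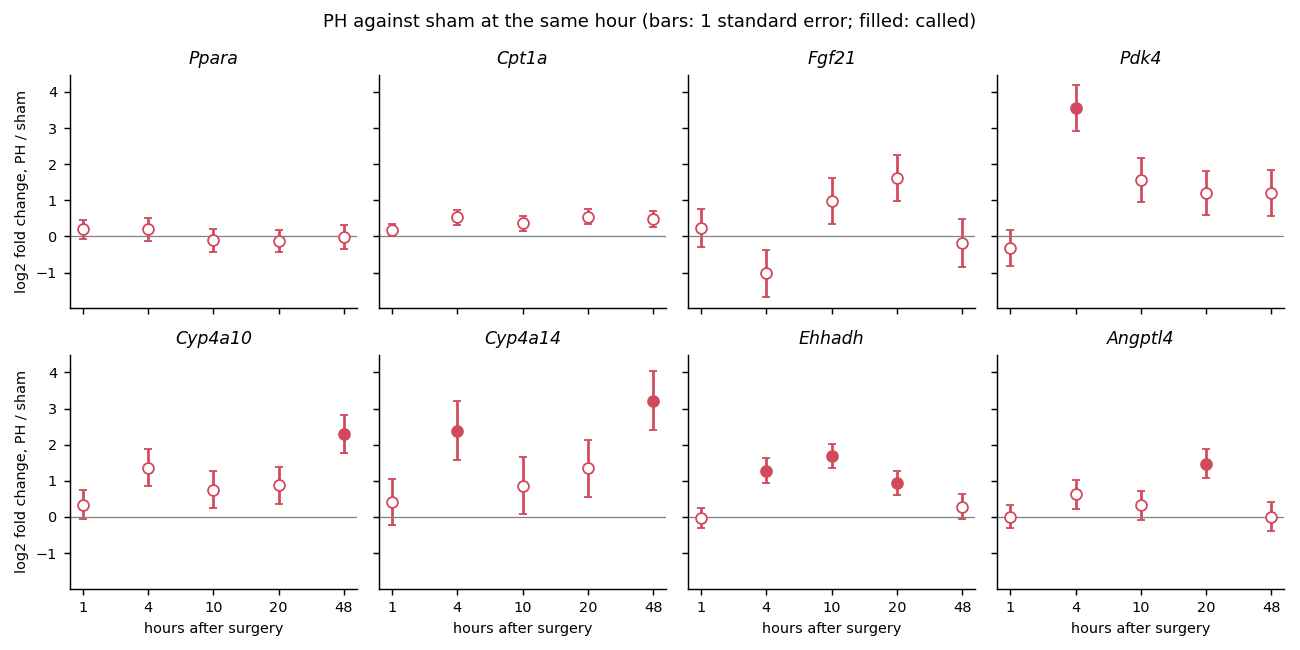
The log2 fold change of PH over sham (vertical axis) is plotted for each of the 8 genes at the 5 hours from 1 to 48 h, on an evenly spaced axis, with bars of 1 SE on either side and filled points for calls. Pdk4 at 4 h (3.56) and Cyp4a14 at 48 h (3.22) stand highest, and the points at 1 h lie near 0.

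Another scaling altered the direction of calls over all genes. With all libraries brought to a common median, the share of calls that were higher after PH moved from 36.5% to 48.3% at 4 h, from 63.3% to 43.2% at 20 h and from 90.1% to 38.1% at 48 h. Against C0 it moved from between 58.3% and 80.1% to between 33.4% and 40.3% in X10, X20, X36, X44, X48, X72 and X1W, and from 35.9% to 51.5% in X1 and from 29.5% to 44.6% in X4. None of the 79 calls made for the 8 genes over the 31 comparisons changed sign under it, and 71 of the 79 remained called.

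The change of the PH minus sham difference between neighbouring times was tested directly. From 1 to 4 h the difference grew for Pdk4 (1 of 8 genes called, against 4.68% of all genes), and 2 of 8 had an unadjusted p under 0.05. From 4 to 10 h, 10 to 20 h and 20 to 48 h limma called 0 of 8, with 2, 1 and 1 genes at an unadjusted p under 0.05 and with 3.73%, 0.104% and 13.2% of all genes called. A change of the PH minus sham difference was therefore shown only for Pdk4, and only from 1 to 4 h. Otherwise, the hour at which a gene separated PH from sham was not shown to differ from the hours beside it.

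Against the resting liver (C0), the number of the 8 genes called higher was largest in X10 and X28. The numbers called higher were 3 in X1 (against 13.5% of all genes called), 5 in X4 (38.2%), 8 in X10 (36.4%), 5 in X20 (24.1%), 8 in X28 (24.9%), 6 in X36 (35%), 3 in X44 (39.2%) and 3 in X48 (38.1%). The shares in X44 and X48 were close to those of all genes. In X72 none was called higher and Angptl4 was called lower (33.2%), and in X1W Ppara was higher and Angptl4 lower (16.9%). At 4 weeks limma called 0 of 8 between X4W and C4W, with 0 at an unadjusted p under 0.05 and 0.065% of all genes called. Sham livers also held calls. S1 held 2 calls, both higher (7.77%), S4 had 2 higher and 2 lower (34.4%), S10 had 6 higher (29.1%), S20 had 1 higher (12.1%), and in S48 limma called 0, with 1 at an unadjusted p under 0.05 (8.88%). The comparisons share the same 9 C0 livers, and all except those with X48, S48 and X72 set an hour of the day beside another, X1W and X4W having no stated ZT.

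**Figure D2:**
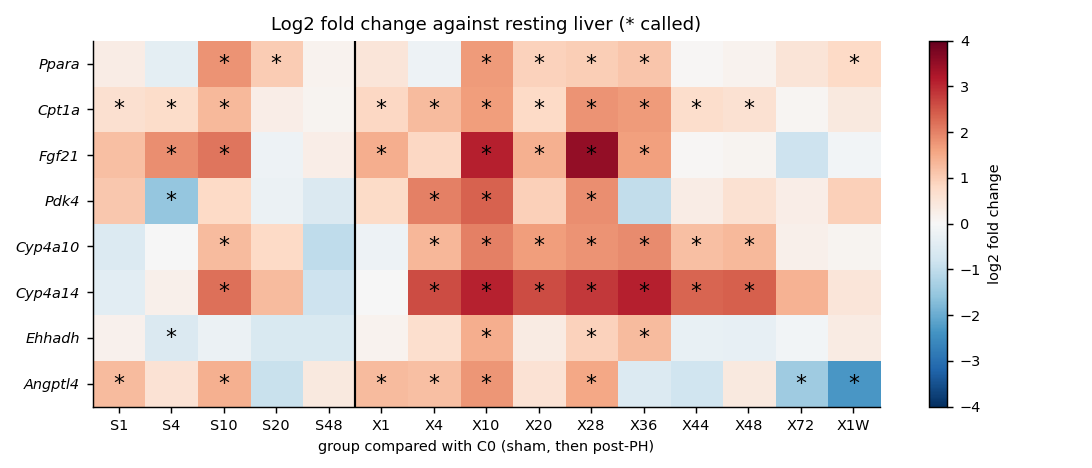
Colours give the log2 fold change against C0 of each of the 8 genes (rows) in 5 sham groups and 10 post-PH groups (columns), and asterisks mark calls. All 8 genes are called higher in X10 and in X28, while Angptl4 is called lower in X72 and X1W.

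Comparisons at a fixed ZT remove the hour of the day, whereas that of C4 with C0 sets ZT6 beside ZT2. Between C4 and C0, both without surgery, 1 of 8 genes was called (Fgf21, higher at ZT6, against 7.89% of all genes). At ZT6, S4 against C4 gave 0 calls by limma, with 1 gene at an unadjusted p under 0.05 (43.3% of all genes). X4 against C4 gave 3 higher (Angptl4, Cpt1a, Pdk4) and 1 lower (Fgf21; 45.6%), and X28 against C4 gave 5 higher (Angptl4, Cpt1a, Cyp4a10, Pdk4, Ppara; 32.7%). At ZT22, X44 had lower Angptl4 and Ppara than X20 (16.1% of all genes), and at ZT2 X72 had lower Angptl4 than X48 (5.96%).

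**Figure D3:**
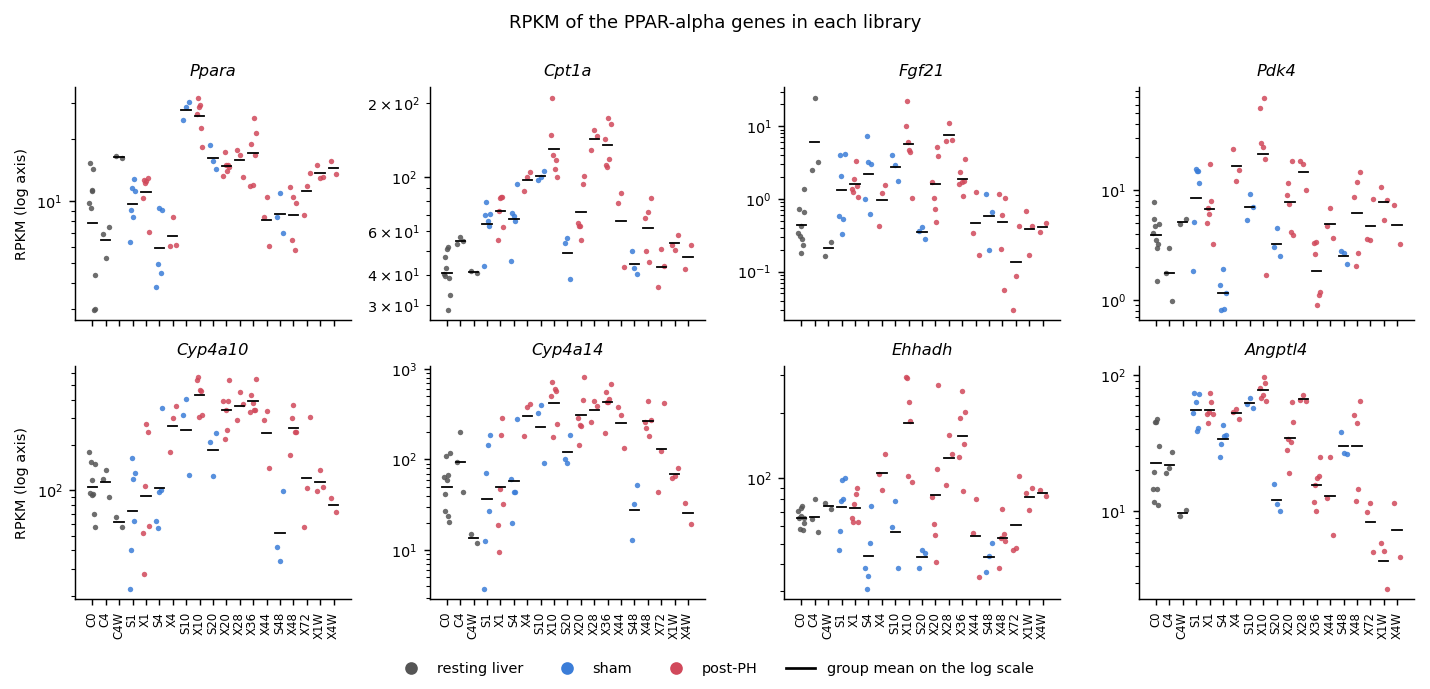
Each panel shows 1 of the 8 genes, with the RPKM of every library on a log axis (vertical) by group (horizontal: controls, sham and post-PH in order of time) and a bar at the group mean on the log scale. The Fgf21 library of X72 that is listed at 0 is drawn at the bottom of its axis, and Pdk4 in X10 shows 1 library at 1.69 RPKM far under the other 5.

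Ppara (ENSMUSG00000022383, chr15:85565413-85633249, plus strand, mm9) showed similar levels in PH and sham livers of the same hour. It stood at 2.98 to 15.4 RPKM with a median of 9.83 in C0, at 25.0, 28.7 and 30.5 RPKM in S10 and at 18.3 to 31.9 RPKM with a median of 27.7 in X10. Every S10 and X10 library lay above every C0 library. The rise was called in S10 (log2 fold change 1.81 ± 0.29 SE, adjusted p = 6.26e-07) and in X10 (1.70 ± 0.23 SE, adjusted p = 2.84e-09), and X10 and S10 overlapped, with a log2 difference of -0.11 (adjusted p = 0.9) whose interval of 2 SE ran from -0.73 to 0.51. At 20 h the same pattern held at a lower level, with 18.8, 15.8 and 14.4 RPKM in S20 and 13.2 to 17.3 RPKM with a median of 14.9 in X20, both called above C0 (1.03 and 0.91). In none of the 5 comparisons of PH with sham was the receptor called, and the largest of the 5 differences was 0.20 (log2, at 1 h). S10 and X10 were taken at ZT12, S20 and X20 at ZT22 and C0 at ZT2. No unoperated group has a stated ZT of 12 or 22. The hour after surgery and the hour of the day therefore cannot be told apart in these rises.

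Later the receptor was still called above C0, with overlap, in X28 (17.8, 16.8 and 13.2 RPKM, log2 fold change 1.00 ± 0.29 SE, adjusted p = 0.00439) and X36 (11.9 to 25.3 RPKM with a median of 17.9, 1.11 ± 0.23 SE, adjusted p = 3.33e-05), and the X28 livers lay above all C4 livers of the same ZT (6.97, 5.27 and 7.50 RPKM, 1.25 ± 0.36 SE, adjusted p = 0.00342). The last call was lost without replicate 2 (1.06, adjusted p = 0.0866). The unoperated C4W livers, without a stated ZT, held 16.6 and 16.2 RPKM. They lay above every C0 liver and within the ranges of S20, X20, X28 and X36. From X20 to X44, both at ZT22, Ppara fell by 0.85 on the log2 scale (adjusted p = 0.0329), to 8.38, 10.53 and 6.04 RPKM, a call lost without replicate 1 (-0.91, adjusted p = 0.12), replicate 2 (-0.99, adjusted p = 0.0733), replicate 3 (-0.64, adjusted p = 0.264) or replicate 5 (-0.85, adjusted p = 0.0543). The C0 triplicate with low Ppara bears on these values. Against C0 replicates 1 to 6 alone, the X10 and S10 rises remained called at 1.13 and 1.24, and X36 at 0.54, whereas X20 (0.34, adjusted p = 0.143), S20 (0.46, adjusted p = 0.163) and X28 (0.43, adjusted p = 0.146) were not. The call in X1W (0.79, adjusted p = 0.0301) was also lost there (0.22, adjusted p = 0.517) and without replicate 1, 2, 3, 7, 8 or 9, over values from 0.22 to 1.93. The S20 call was in addition lost without replicate 1 (0.97, adjusted p = 0.0794). In the order of group means, taken for each gene on the log2 scale while mean RPKM is printed, S10 (28.0 RPKM) and X10 (26.3) came first, then X36, C4W, S20, X28, X20, X4W and X1W between 17.8 and 13.7, then X72, X1, S1, S48, X48, X44 and C0, and last X4, C4 and S4 (6.32). Neighbours in this order overlapped throughout.

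The partners of the receptor behaved unequally. Rxra, its dimer partner, rose with Ppara in S10 (1.21, log2) and X10 (1.01) against C0 and was called in none of the comparisons of PH with sham. Ppargc1a, the fasting-induced co-activator PGC-1-alpha, stood at 0.494, 0.355, 0.509, 0.348 and 0.348 RPKM in S4 and at 1.02, 1.46 and 0.723 RPKM in X4. All X4 livers exceeded all S4 livers (log2 fold change 0.97 ± 0.29 SE, adjusted p = 0.0141). At 10 h its levels were 0.736, 0.726 and 0.790 RPKM in S10 and 1.72 to 3.59 RPKM with a median of 2.43 in X10, again without overlap (1.45 ± 0.28 SE, adjusted p = 0.000192). The call at 4 h was lost without replicate 2 (0.94, adjusted p = 0.0565), replicate 4 (0.94, adjusted p = 0.0738) or replicate 5 (0.73, adjusted p = 0.146). It was also lost with a pseudocount of 1 RPKM and with S4 reduced to replicates 1 to 3 or to replicates 4 and 5. These were 6 of 14 other settings, over which the values ran from 0.54 to 1.17. The call at 10 h was lost in none of 15 settings. Ppargc1a was lower in S4 (ZT6) than in C0 (ZT2) by -1.42 (adjusted p = 9.67e-08), while X4 differed from C0 by -0.45 (adjusted p = 0.138). Unoperated C4 livers of ZT6 held 0.811 to 0.918 RPKM, also under all C0 livers (0.929 to 3.03 RPKM). S4 was called under C4, but the call was lost in 5 of 11 other settings, over values from -0.87 to -0.40.

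Cpt1a (ENSMUSG00000024900, chr19:3323301-3385732, plus strand, mm9), the rate-limiting gate of the mitochondrial carnitine shuttle, rose after both operations, and at none of the 5 hours was PH called above sham. It stood at 28.8 to 52.1 RPKM with a median of 40.3 in C0. After sham surgery it was 45.3, 71.4, 69.6, 66.2 and 93.8 RPKM in S4 and 97.2, 100.1 and 106 RPKM in S10, and after PH 88.0, 100.1 and 105 RPKM in X4 and 100.2 to 211 RPKM with a median of 120.4 in X10. Every X4, X10 and S10 library exceeded every C0 library, whereas S4 overlapped C0. The log2 fold change against C0 was 0.65 in S1, 0.72 in S4 and 1.30 in S10, and 0.82 in X1, 1.25 in X4 and 1.67 in X10, all of them called. PH minus sham came to 0.17, 0.53, 0.37, 0.55 and 0.48 at the 5 hours in order, with adjusted p from 0.056 to 0.857 and overlapping libraries at each hour.

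The highest group means of Cpt1a on the log2 scale belonged to PH livers of the second day, although the highest single liver was in X10. The levels were 128, 156 and 147 RPKM in X28 and 110.2 to 173 RPKM with a median of 131 in X36. Both lay above all C0 livers (log2 fold change 1.81 ± 0.19 SE, adjusted p = 9.51e-12; 1.72 ± 0.15 SE, adjusted p = 1.51e-15), and X28 also lay above all C4 livers of the same ZT (53.2, 57.1 and 54.9 RPKM, 1.38 ± 0.24 SE, adjusted p = 3.15e-06). No sham livers of 28 or 36 h are among these samples, so the operation and the resection cannot be told apart there. By 72 h Cpt1a was back at 35.7, 50.9 and 43.4 RPKM, a difference from C0 of 0.07 with an interval from -0.31 to 0.46. The calls in X44 (0.69) and X48 (0.60) against C0 were lost with all libraries at a common median (0.18 and 0.11), and the X44 call also without replicate 2 (0.53, adjusted p = 0.0575). The X48 call was also lost against C0 replicates 1 to 6 (0.45, adjusted p = 0.0206). X28, X36 and X10 led the order with means of 144, 137 and 135 RPKM. S10, X4, X1, X20, S4, X44, S1 and X48 followed between 101 and 63.4, and C4, X1W, S20, X4W, S48, X72, C4W and C0 closed it between 55.1 and 40.9. Of the neighbours, X4 lay wholly above X1 and the others overlapped.

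Ehhadh (ENSMUSG00000022853, chr16:21761360-21787917, minus strand, mm9), the bifunctional enzyme of peroxisomal beta-oxidation, was called above sham at 3 of the 5 hours. At 4 h it was 105, 88.2 and 130.3 RPKM in X4 and 38.5, 30.9, 35.5, 50.3 and 74.5 RPKM in S4. At 10 h it ran from 96.5 to 296 RPKM with a median of 205 in X10 and stood at 59.6, 78.8 and 38.5 RPKM in S10. The groups did not overlap at either hour. PH livers held 2.43 times the sham level at 4 h (log2 fold change 1.28 ± 0.34 SE, adjusted p = 0.00638) and 3.20 times at 10 h (1.68 ± 0.33 SE, adjusted p = 0.000324). At 4 h the call was lost when S4 was reduced to replicates 4 and 5 (0.80, adjusted p = 0.3). At 20 h the X20 livers ran from 41.1 to 271 RPKM with a median of 72.0, against 38.4, 46.9 and 45.3 RPKM in S20. The groups overlapped, and the call (0.94 ± 0.33 SE, adjusted p = 0.0487) was lost under 12 of 14 other settings with values from 0.59 to 1.30, among them without replicate 1 (0.86, adjusted p = 0.302), replicate 2 (1.09, adjusted p = 0.12), replicate 3 (1.10, adjusted p = 0.0626), replicate 5 (0.86, adjusted p = 0.0983) or replicate 6 (0.60, adjusted p = 0.191).

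Against C0 (57.9 to 74.5 RPKM with a median of 65.8), Ehhadh rose in X10 (1.46), X28 (0.92) and X36 (1.26), each without overlap. The X28 call was lost without replicate 2 (0.74, adjusted p = 0.162) or replicate 3 (0.86, adjusted p = 0.0569). In S4 it was lower than in C0 (-0.59 ± 0.26 SE, adjusted p = 0.0477), a call lost under 12 of 17 other settings, among them against C0 replicates 1 to 6 (-0.64, adjusted p = 0.0585) or 7 to 9 (-0.50, adjusted p = 0.238) and without replicate 1 (-0.53, adjusted p = 0.154), replicate 2 (-0.47, adjusted p = 0.203), replicate 3 (-0.54, adjusted p = 0.0997), replicate 4 (-0.62, adjusted p = 0.0555), replicate 8 (-0.60, adjusted p = 0.0514) or replicate 9 (-0.59, adjusted p = 0.0556). At 4 h the separation of PH from sham thus held both a sham level under C0 and a PH level of 0.69 over C0 (adjusted p = 0.057). X10 (199.7 RPKM), X36 (167) and X28 (128) headed the order of group means, and S4 (45.9), S48 (43.7) and S20 (43.5) closed it, with all neighbours overlapping. In S10 it differed from C0 by -0.22 (log2, adjusted p = 0.6).

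Cyp4a10 (ENSMUSG00000066072, chr4:115190869-115206254, plus strand) and Cyp4a14 (ENSMUSG00000028715, chr4:115158805-115168747, minus strand, both mm9) encode fatty acid omega-hydroxylases and lie side by side on chromosome 4. Of the 100-base windows in Cyp4a10 transcripts, 4.90% also occur in Cyp4a31 and 8.95% in Cyp4a32, where the counting would have divided reads, while Cyp4a14 shared none with the other 5 Cyp4a genes compared. Both genes were called above C0 in every PH group from 4 to 48 h and in S10, and both set PH apart from sham at 48 h. Cyp4a14 stood at 256, 225, 440.2, 183 and 274 RPKM in X48 and at 13.1, 31.9 and 52.4 RPKM in S48. Cyp4a10 stood at 171, 304, 369, 244 and 243 RPKM in X48 and at 42.3, 34.1 and 99.0 RPKM in S48. Every X48 liver exceeded every S48 liver for both genes. The X48 level was 9.34 times that of S48 for Cyp4a14 (log2 fold change 3.22 ± 0.82 SE, adjusted p = 0.000917) and 4.91 times for Cyp4a10 (2.29 ± 0.52 SE, adjusted p = 0.000239). All 11 other settings kept both calls, and under scaling to the same median the values were 2.73 and 1.81. The difference between PH and sham was not shown to differ between 48 and 20 h (1.87 ± 1.14 SE, adjusted p = 0.278 for Cyp4a14, 1.42 ± 0.72 SE, adjusted p = 0.184 for Cyp4a10).

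At 4 h Cyp4a14 was 179, 377 and 413 RPKM in X4 and 61.3, 20.0, 43.5, 43.7 and 279 RPKM in S4, where replicate 5 was the highest sham liver and overlapped X4. The call (log2 fold change 2.38 ± 0.82 SE, adjusted p = 0.0375) was lost under 10 of 14 other settings with values from 1.46 to 3.00, among them without replicate 1 (2.40, adjusted p = 0.0567), replicate 2 (2.00, adjusted p = 0.144), replicate 3 (2.28, adjusted p = 0.101), replicate 4 (2.66, adjusted p = 0.0626), replicate 5 (2.79, adjusted p = 0.0502) or replicate 6 (2.16, adjusted p = 0.146). Cyp4a10 at 4 h (1.37 ± 0.52 SE, adjusted p = 0.067) was not called. At 10 h sham livers were also high, with Cyp4a14 at 328, 402 and 90.9 RPKM in S10 and at 178 to 721 RPKM with a median of 537 in X10, and the groups overlapped. Against C0 (20.4 to 119 RPKM with a median of 59.4), Cyp4a14 rose in every group from X4 to X48, by 2.60 in X4, 3.06 in X10, 2.62 in X20, 2.82 in X28, 3.11 in X36, 2.32 in X44 and 2.40 in X48 (log2), each without overlap. The X44 call was lost without replicate 1 (2.08, adjusted p = 0.0501) or replicate 2 (2.06, adjusted p = 0.0594). The sham rise in S10 (2.19) was lost without replicate 1 (1.98, adjusted p = 0.0711) or replicate 2 (1.68, adjusted p = 0.151). Cyp4a10 rose in the same 7 groups by 1.19 to 2.02. At 72 h the 3 livers spread widely, with Cyp4a14 at 43.5, 124 and 420.1 RPKM, and the difference from C0 was 1.39 (adjusted p = 0.114). For Cyp4a10 the X44 call was lost without replicate 1 (1.14, adjusted p = 0.101), replicate 2 (0.93, adjusted p = 0.184) or replicate 8 (1.08, adjusted p = 0.0504), and the X4 call without replicate 5 (1.24, adjusted p = 0.0531) or replicate 6 (1.11, adjusted p = 0.106). Its rise in S10 (1.26) was lost without replicate 1 (1.19, adjusted p = 0.0971) or replicate 2 (0.90, adjusted p = 0.225), and its rise in X28 over C4 (1.69) without replicate 2 (1.67, adjusted p = 0.0754) or replicate 3 (1.505, adjusted p = 0.0884). Scaling to the same median ended the Cyp4a10 calls against C0 in X44 (0.68), X48 (0.79) and S10 (1.04), and C0 replicates 1 to 6 alone ended those in X44 (1.03, adjusted p = 0.0821) and S10 (1.09, adjusted p = 0.0756).

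On the log2 scale the order of group means of Cyp4a10, again printed as mean RPKM, was led by X10 (441 RPKM), X36 (396), X28 (371) and X20 (355) and closed by C4W (61.9) and S48 (58.5). S10 (283) stood between X48 (266) and X44 (258). Cyp4a14 was led on the log2 scale by X36 (459), X10 (469), X28 (361) and X20 (362) and closed by S48 (32.5), X4W (26.2) and C4W (13.6). For Cyp4a14, X4W lay wholly above C4W (2 livers each), and all other neighbours of both genes overlapped. Between all 8 genes the 2 cytochromes were the most alike, with a Pearson correlation of 0.966 over the 19 group means.

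Pdk4 (ENSMUSG00000019577, chr6:5433351-5446309, minus strand, mm9), whose product phosphorylates and so inactivates pyruvate dehydrogenase, had the largest called fold change of PH over sham among the 8 genes. At 4 h it stood at 23.99, 12.1 and 15.4 RPKM in X4 and at 1.38, 0.822, 1.92, 0.825 and 1.16 RPKM in S4. The lowest X4 liver held several times the RPKM of the highest S4 liver. The X4 level was 11.8 times that of S4 (log2 fold change 3.56 ± 0.63 SE, adjusted p = 3.29e-05), and all 14 other settings kept the call, with values from 3.00 to 3.92. Both groups, taken at ZT6, differed from C0, taken at ZT2. C0 livers ran from 1.496 to 7.85 RPKM with a median of 4.10, X4 rose by 2.00 against C0 (adjusted p = 0.0023), and S4 fell by 1.56 (adjusted p = 0.0042). The sham fall was lost against C0 replicates 7 to 9 alone (-1.16, adjusted p = 0.122). Unoperated C4 livers of the same ZT held 1.78, 3.00 and 0.989 RPKM, which overlapped S4 (-0.51 ± 0.63 SE, adjusted p = 0.515) and lay wholly under X4 (3.05 ± 0.70 SE, adjusted p = 0.000182). S4 was thus not shown to differ from unoperated livers of its own ZT.

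At 1 h the PH and sham livers were mixed, with 3.24 to 17.5 RPKM with a median of 6.52 in X1 and 1.83 to 15.6 RPKM with a median of 13.2 in S1. The difference between PH and sham grew from 1 to 4 h by 3.88 ± 0.80 SE, adjusted p = 0.00127, the one such change among the 8 genes that was called. At 10 h X10 ran from 1.69 to 69.6 RPKM with a median of 25.8 and S10 held 5.39, 9.27 and 7.04 RPKM. Replicate 6 of X10, at 1.69 RPKM, lay under all S10 livers and the other 5 above them, and the difference was not called (log2 fold change 1.56 ± 0.61 SE, adjusted p = 0.0845). At 28 h, again at ZT6, X28 stood at 18.3, 17.5 and 10.1 RPKM, above all C4 livers (2.90 ± 0.70 SE, adjusted p = 0.000588). At 36 h (ZT14) the level was down to 0.906 to 3.37 RPKM with a median of 1.93 (against C0 -0.99, adjusted p = 0.0547). X10 (33.0 RPKM), X4 (17.1) and X28 (15.3) headed the order of group means and X36 (2.10), C4 (1.92) and S4 (1.22) closed it, and all neighbours overlapped. The X28 call against C0 (1.85) was lost without replicate 1 (1.71, adjusted p = 0.0639) or replicate 2 (1.85, adjusted p = 0.0518).

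Fgf21 (ENSMUSG00000030827, chr7:52869277-52870860, minus strand, mm9) encodes a hormone that the liver releases in fasting and under stress. It was the least abundant of the 8 genes, with an estimated 5.00 to 26.9 reads per C0 library and 0 to 654 over all libraries, so its values carry more counting error than the others. Its level differed between C0 and C4, unoperated groups of different hours. C0 livers (ZT2) ran from 0.180 to 1.35 RPKM with a median of 0.336 and C4 livers (ZT6) held 2.52, 24.7 and 3.25 RPKM, without overlap (log2 fold change 3.18 ± 0.60 SE, adjusted p = 0.000286). The call held against C0 replicates 1 to 6 (3.36, adjusted p = 5.22e-05) and 7 to 9 (2.81, adjusted p = 0.0436), and which of these hold the triplicate of the same period as C4 is not given in the sources used here. It was lost without replicate 2, which includes the C4 liver at 24.7 RPKM (2.24, adjusted p = 0.0654). At the same ZT6, X4 livers held 0.426, 1.21 and 1.57 RPKM, all under the C4 livers (-2.36 ± 0.74 SE, adjusted p = 0.00515), again a call lost without replicate 2 (-1.36, adjusted p = 0.138). S4 livers held 0.987, 7.32, 3.18, 0.630 and 3.03 RPKM and overlapped both. At 28 h, also ZT6, the X28 livers reached 6.20, 11.05 and 6.49 RPKM, a level that overlapped C4 (0.34 ± 0.74 SE, adjusted p = 0.752).

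Against C0, Fgf21 rose in X1 (1.44), X10 (3.11), X20 (1.42), X28 (3.52) and X36 (1.65) and in the sham groups S4 (1.85) and S10 (2.13), all on the log2(RPKM + 0.25) scale. The calls in X1, X20, X36 and S4 were lost against C0 replicates 7 to 9 alone (1.08, 1.05, 1.28 and 1.48), that in X1 also without replicate 3 (1.37, adjusted p = 0.0588), that in X20 also without replicate 5 (1.03, adjusted p = 0.101) and that in S10 without replicate 1 (1.86, adjusted p = 0.0533). No comparison of PH with sham was called. At 20 h, X20 ran from 0.476 to 5.11 RPKM with a median of 1.36 and S20 held 0.367, 0.415 and 0.280 RPKM. The groups did not overlap, yet the adjusted p missed the threshold (1.61 ± 0.64 SE, adjusted p = 0.0835), and the interval of 2 SE reached from 0.33 to 2.90. X28, C4 and X10 headed the order of means on the log2 scale (7.91, 10.2 and 8.06 RPKM), and S20, C4W and X72 closed it. S20 lay wholly above C4W, and all other neighbours overlapped. Klb, the co-receptor through which FGF21 acts, fell in X4 (-1.80) and in S4 (-1.52) against C0 and was called in no comparison of PH with sham. It was called above C0 in X1 (1.01), S1 (0.86), X20, S20, X28, X36, X44, X48 and X72, the smallest of these rises being that in X44 (0.63). C0 replicates 1 to 6 alone ended the calls in X44 (0.37) and S20 (0.44), as did leaving out replicate 1 (0.53 and 0.61) and, for S20, replicate 2 (0.66), and scaling to the same median ended those in X36, X44, X48 and X72.

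Angptl4 (ENSMUSG00000002289, chr17:33910695-33918520, minus strand, mm9) encodes a secreted inhibitor of lipoprotein lipase. It was called above C0 early after both operations and under C0 in X72 and X1W. At 1 h it ran from 38.9 to 74.0 RPKM with a median of 57.8 in S1 and from 44.3 to 74.1 RPKM with a median of 52.6 in X1, against 11.1 to 47.9 RPKM with a median of 19.6 in C0. The 2 operated groups overlapped almost completely, and both were called above C0 (1.27 and 1.28), as were X4 (1.19), S10 (1.43), X10 (1.75) and X28 (1.54). C0 replicates 4 to 6, at 45.2 to 47.9 RPKM, lay within the ranges of S1 and X1 and overlapped X4. No fit used that triplicate alone as the control, so the early rises were not tested against it. The X4 call was lost with the compared groups fitted alone and with a block on the replicate number. At 4 h, X4 held 53.2, 56.4 and 47.7 RPKM and S4 25.2, 31.3, 43.2, 35.5 and 36.3 RPKM, without overlap but not called (0.63 ± 0.40 SE, adjusted p = 0.347). PH was called above sham at 20 h, where X20 ran from 19.2 to 63.3 RPKM with a median of 33.0 and S20 held 15.8, 11.4 and 10.1 RPKM. The groups did not overlap and the X20 level was 2.79 times that of S20 (log2 fold change 1.48 ± 0.39 SE, adjusted p = 0.00739). The call was lost without replicate 2 (1.44, adjusted p = 0.0628) and within replicates 1 to 3 of both groups (1.09, adjusted p = 0.109).

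At ZT22 of the following night, X44 held 12.6, 25.0 and 6.76 RPKM and was lower than X20 (log2 fold change -1.40 ± 0.39 SE, adjusted p = 0.00435), a call lost without replicate 3 (-1.12, adjusted p = 0.0688). In X72 the level was 9.94, 11.6 and 5.09 RPKM and in X1W 5.83, 5.12 and 2.73 RPKM. All X1W livers lay under every C0 liver and X72 overlapped C0. The unoperated C4W livers, at 9.27 and 10.2 RPKM, also lay under every C0 liver and within the range of X72. The level in X1W was 5.01 times lower than in C0 (-2.32 ± 0.37 SE, adjusted p = 1.7e-06), and X72 was lower by 1.41 on the log2 scale (adjusted p = 0.000954). Both falls remained called against C0 replicates 1 to 6 (-1.62 in X72 and -2.53 in X1W) and 7 to 9 (-1.001 and -1.91). X72 was also lower than X48 of the same ZT (-1.82 ± 0.40 SE, adjusted p = 0.00136), without overlap, although that call was lost without replicate 3 (-1.34, adjusted p = 0.0925). In X48 the 5 livers held 50.6, 11.9, 44.1, 14.6 and 64.5 RPKM, with replicates 2 and 4 far under the others. The rise of X4 over C4 (1.24) was lost without replicate 1 (1.14, adjusted p = 0.0792) or replicate 2 (1.197, adjusted p = 0.0503). X10 (78.1 RPKM), X28 (66.9) and S10 (62.1) headed the order of means, X72, X4W and X1W (4.56) closed it, and all neighbours overlapped.

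Bdh1 and Acat1 were not called by limma between PH and sham at any of the 5 hours, although at an unadjusted p under 0.05 both were higher in X4 than in S4 (0.53 and 0.31, log2). Bdh1, which interconverts the ketone bodies, was 16.5, 16.6, 17.8, 17.5 and 17.4 RPKM in S4 and 20.5, 30.1 and 24.9 RPKM in X4, against 28.4 to 51.9 RPKM with a median of 37.1 in C0. It fell in both groups (-1.10 in S4 and -0.57 in X4), and the call in X4 was lost without replicate 4 (-0.48) and under scaling (-0.39). It rose in X28 (0.53) and X36 (0.54), both calls being lost under scaling (0.48 and 0.16), that in X28 also without replicate 1 (0.49), replicate 2 (0.48), replicate 4 (0.49) or replicate 5 (0.50) and that in X36 without replicate 2 (0.49), replicate 4 (0.49) or replicate 6 (0.48). Acat1, a mitochondrial thiolase, fell in S4 (-0.57), S48 (-0.92), X48 (-0.53) and X72 (-0.53), the call in S4 being lost under scaling (-0.44) and those in X48 and X72 without replicate 1 (-0.48) or replicate 4 (-0.50) and without replicate 1 (-0.26). Against C0 replicates 7 to 9 alone these 3 calls were lost (-0.45, -0.40 and -0.40), while that in S48 held in all 17 settings. Acadm, the medium-chain dehydrogenase of mitochondrial beta-oxidation, was higher in X48 (98.2, 89.5, 117, 101 and 102 RPKM) than in S48 (59.3, 68.6 and 59.9 RPKM), without overlap (log2 fold change 0.69 ± 0.14 SE, adjusted p = 4.14e-05), but not under scaling to the same median (0.21, adjusted p = 0.245).

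**Figure D4:**
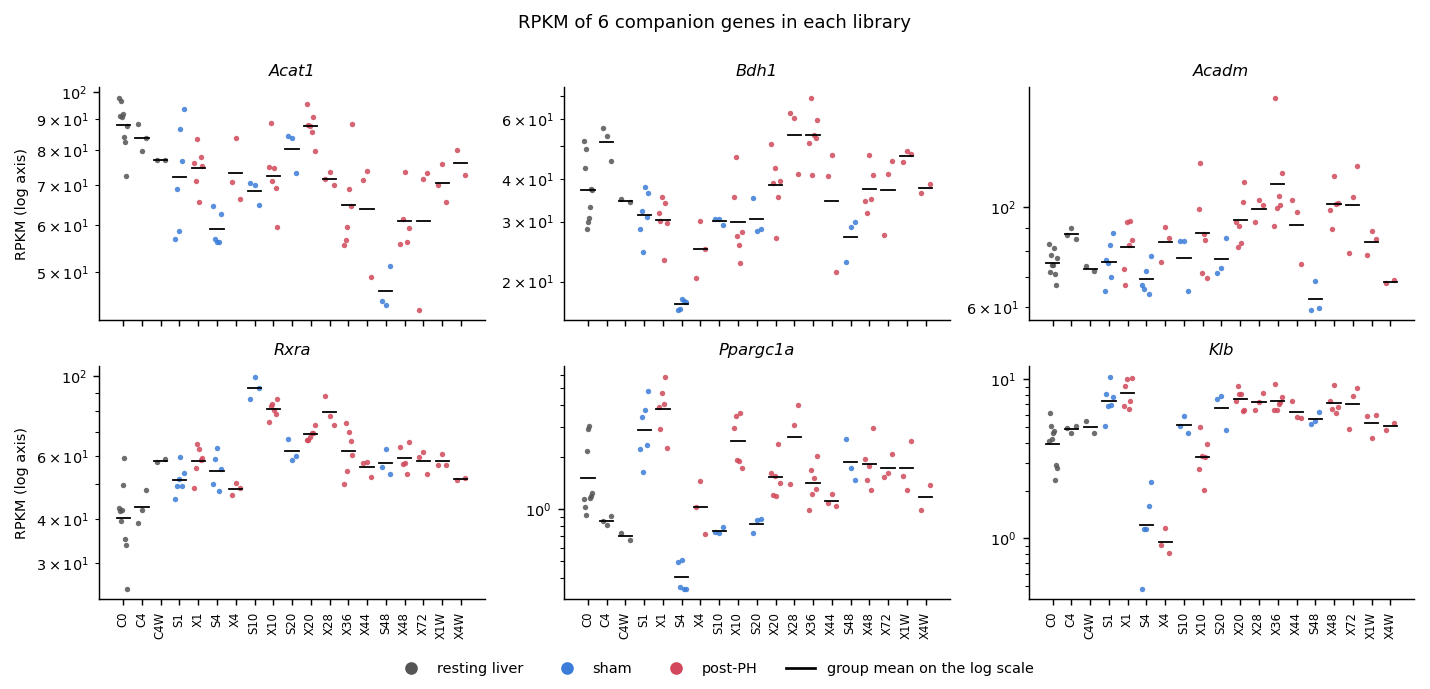
The RPKM of every library is shown on a log axis (vertical) by group (horizontal) for Acat1, Bdh1, Acadm, Rxra, Ppargc1a and Klb, with a bar at each group mean on the log scale. The group means of Bdh1 are lowest in S4, and those of Klb in X4 and S4.

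Lists of 90 pathway genes, of which 89 were detected, set the 8 genes beside the rest of fatty acid metabolism. Without the 8, 81 genes were tested. Of these 81, limma called 0 at 1 h (5 at an unadjusted p under 0.05), 21 were higher and 3 lower in X4 than in S4, 15 higher and 1 lower in X10 than in S10, 6 higher and 5 lower in X20 than in S20, and 18 higher and 7 lower in X48 than in S48. The shares of all genes called at these hours were 0.65%, 8.64%, 7.02%, 7.11% and 27.2%, and that of the 81 genes at 48 h lay near it. Their median log2 fold change was 0.33, 0.17, 0.15 and 0.24 at 4, 10, 20 and 48 h, beside -0.04, 0.00, 0.07 and 0.27 over all genes. Scaling to the same median kept the direction at 4 h (27 higher, 2 lower) and 10 h (15 higher, 2 lower), and turned it at 20 h (3 higher, 9 lower) and 48 h (6 higher, 23 lower), so at these 2 hours no direction of the lists can be given. The number called, 24 at 4 h and 16 at 10 h, was 15 without replicate 1 at 4 h and 8 with S4 reduced to replicates 4 and 5, and at 10 h 5, 10 and 6 without replicate 1, 2 and 3. At 20 h it was 11, and 5 and 7 without replicate 1 and 6, and at 48 h it was 25, and 16 without replicate 1.

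At 4 h the calls were spread over the pathway, members of the 8 included, beside 8.64% of all genes called. Higher in X4 than in S4 were 4 of 8 genes of omega-oxidation (median log2 fold change 1.22), 3 of 5 of the carnitine shuttle (Cpt2, Crat and Crot, 0.60), 4 of 12 of peroxisomal beta-oxidation (among them Abcd3, Decr2 and Ehhadh, 0.47), 2 of 6 acyl-CoA thioesterases (Acot2 and Acot12, 0.60), 3 of 10 of uptake and activation (Acsl1, Acsl4 and Slc22a5, with Acsl3 lower) and 2 of 15 of mitochondrial beta-oxidation (Decr1 and Eci2). The last of these shares lies near that of all genes. Among the omega-oxidation calls, that of Cyp4a14 was lost in 10 of 14 other settings and that of Cyp4a31 in 7 of 14. Of the 11 receptor and co-regulator genes, Creb3l3 and Ppargc1a were higher. Of the 18 secreted factors and fuel switches, Pdk4, Plin2, Plin5 and Vnn1 were higher and Fgfr4 and Gm6484 (an older symbol of Angptl8, an inhibitor of lipoprotein lipase that is induced by feeding) lower. Among the genes outside the 8, the largest non-overlapping rises were those of Acot2 (1.69, log2), a mitochondrial thioesterase, Vnn1 (1.49), a pantetheinase, and Plin2 (1.34), a lipid droplet coat protein. The largest falls were those of Gm6484 (-2.11) and Fgfr4 (-0.50), the FGF receptor of hepatocytes. The Acot2 call was lost with S4 reduced to replicates 4 and 5 (0.92, adjusted p = 0.398) and with the compared groups fitted alone (1.69, adjusted p = 0.0641). The Gm6484 call was lost without replicate 3 (-1.84), replicate 4 (-2.09) or replicate 6 (-1.86) and that of Fgfr4 without replicate 3 (-0.43), replicate 4 (-0.45) or replicate 5 (-0.43). The summed level of 6 neutrophil markers was 6.23 to 40.2 RPKM in S4 and 4.07 to 8.44 RPKM in X4, and that of the adipocyte genes, again mostly Cidec, was 1.66 to 4.20 RPKM in S4 and 10.1 to 24.3 RPKM in X4. The part of either in these values was not tested.

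At 10 h 4 of 12 peroxisomal genes (among them Abcd3, Ehhadh and Pex11a) were higher and Pecr was lower, beside 7.02% of all genes called. By the same rule, Plin2 (1.80), Acot2 (1.69) and Plin5 (1.23), another lipid droplet protein, rose most outside the 8, and Pecr fell (-0.55). The calls were lost without replicate 1 (1.55) or replicate 3 (1.61) for Acot2, without replicate 1 (1.15), replicate 2 (1.31) or replicate 3 (1.19) for Plin5 and without replicate 1 (-0.47) for Pecr. The summed adipocyte list, carried by the droplet gene Cidec, was also higher in X10 than in S10, as was the stellate sum, and their part in these values was not tested. At 20 h Cd36 (0.96), a fatty acid transporter, Slc22a5 (0.92), the carnitine transporter, and Ucp2 (0.86) rose most, and Angptl6 (-0.87) and Pdk2 (-0.63) were among the largest falls. Angptl4 was higher there while Angptl6 was lower. The call of Angptl6 held without any 1 replicate number, and that of Cd36 was lost without replicate 1 (1.22), replicate 2 (1.02), replicate 3 (0.92), replicate 5 (0.93) or replicate 6 (0.69), of Slc22a5 without replicate 1 (1.08), replicate 2 (0.88), replicate 3 (1.00) or replicate 6 (0.76), of Ucp2 without replicate 1 (0.80) or replicate 6 (0.74) and of Pdk2 without replicate 1 (-0.62), replicate 2 (-0.57) or replicate 3 (-0.60). The part of the stellate and hepatocyte sums, which differed at 20 h, was not tested. At 48 h 4 of 8 omega-oxidation genes (Cyp4a10, Cyp4a14, Cyp4a31 and Cyp4a32), 3 of 6 thioesterases (Acot1, Acot2 and Acot4) and 5 of 15 genes of mitochondrial beta-oxidation (Acadl, Acadm, Decr1, Hadha and Hadhb) were higher in X48, beside 27.2% of all genes called. The last of these shares lies near that of all genes. Outside the 8, Cyp4a31 (2.62), which shares 4.00% of its windows with Cyp4a10 and 5.15% with Cyp4a32, Ucp2 (2.04) and Acot2 (1.97) rose most. Lpin1 (-2.33), a phosphatidate phosphatase and co-activator of PPAR-alpha, Pdk1 (-0.99) and the bile acid ligase Slc27a5 (-0.98) fell most, the Lpin1 call being lost without replicate 1 (-2.01) or replicate 3 (-2.22). The part of the stellate, cholangiocyte and endothelial sums, which differed at 48 h, was not tested. Each of the genes named for the largest rises and falls kept its sign under scaling to the same median. That scaling nevertheless ended the calls of Fgfr4 at 4 h and of Cd36 at 20 h. The Fgfr4 call was lost in 8 of 14 other settings and the Cd36 call in 10 of 14.

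**Figure D5:**
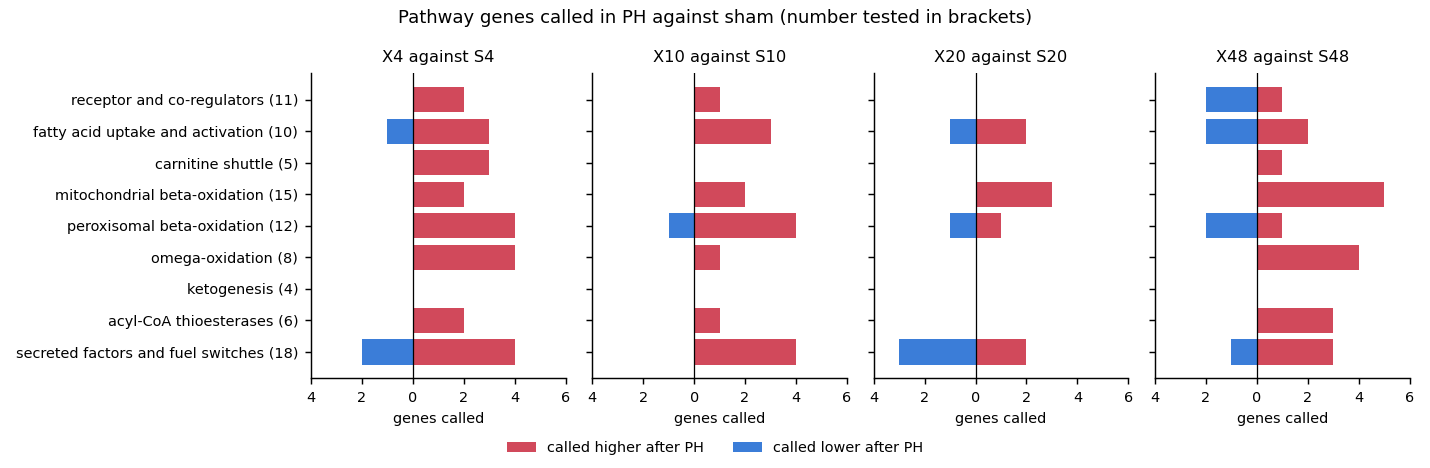
For each pathway list (rows) the number of genes called higher and lower in PH than in sham is drawn as bars to the right and left (horizontal axis, genes) at 4, 10, 20 and 48 h. Omega-oxidation reaches 4 of 8 genes at 4 and 48 h.

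The genes whose pattern was most like that of each of the 8 were sought by Pearson correlation over the 19 group means, among 11560 genes whose mean passed 0 (log2 RPKM) in some group. These correlations are descriptions over groups that share libraries' depth and scaling. Ppara was closest to Rab43 (0.885), Gna12 (0.877) and Hist1h1e (0.871). Cpt1a was closest to Tmtc2 (0.943), Cidec (0.924) and Eci2 (0.919), an enzyme for unsaturated fatty acids. Ehhadh was closest to Gm15441 (0.842), Pex19 (0.821) and Abcb4 (0.801). Cyp4a10 was closest to Cyp4a14 (0.966), Cyp4a31 (0.927) and Psmd8 (0.923), and Cyp4a14 to Cyp4a10 (0.966), Cyp4a31 (0.952) and Acadl (0.912), the long-chain acyl-CoA dehydrogenase. Pdk4 was closest to Irak2 (0.835), Dennd4a (0.769) and Cep110 (0.750). Fgf21 was closest to Gm15035 (0.830), Slc25a47 (0.811) and Apoa5 (0.804), and Angptl4 to Slc25a47 (0.902), Nlrp12 (0.868) and St3gal5 (0.859). Slc25a47, a carrier of the inner mitochondrial membrane made in hepatocytes, stood among the 3 closest genes of both secreted factors. Among the 28 pairs of the 8 genes themselves, the correlation ran from 0.0458 for Ppara and Angptl4 to 0.966 for the Cyp4a pair.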

How the data were processed

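Poly(A) RNA of individual livers was sequenced as stranded 100-nt single-end reads. According to the submitters' processing notes and the methods of the study, the authors trimmed reads, aligned them to mm9 with TopHat2 2.0.13 and Bowtie2, handled them with SAMtools 0.1.19, and counted the transcribed strand over Ensembl genes with featureCounts, dividing a multi-mapped read by its number of positions. The deposited values are log2 RPKM, with genes without reads at a fixed floor. The table held 84 columns of values, of which 80 were matched to samples and 4 were not used. Columns of the authors' own tests on read counts were not used. Depth per sample was estimated from the smallest step between low values. Whole reads were recovered for too few values (lowest sample 37.0%, median 76.1%) for a count test.

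Values were converted to log2(RPKM + 0.25). The 15396 genes above -1.5 (log2 RPKM) in at least 1 library were fitted over all 19 groups with limma 3.58.1 (R 4.3.3, moderated test with a variance trend), after the code was tested on simulated data. Benjamini-Hochberg adjustment ran over all genes within each comparison, and calls needed an adjusted p under 0.05 together with a log2 fold change beyond 0.5 in either direction. Tables and figures were made with Python 3.11.15, numpy 2.4.6, pandas 2.3.3, scipy 1.17.1 and matplotlib 3.10.9. The 8 genes, the pathway lists and the markers were chosen with earlier results of these data known. Beyond the 8 genes, named genes were the companions Acat1, Bdh1, Acadm, Rxra, Ppargc1a and Klb, the 3 largest non-overlapping called rises and falls among pathway genes in each comparison of PH with sham, and the 3 genes closest to each of the 8 over group means. Some genes that the rule names are not reported here. Genes cited only as examples of a list count were chosen after their values were seen.

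Samples were collected in several periods. S48, X28, X44, X48, X72 and X1W came from 1 period, S10, S20, C4W and X4W from another, and C4 from another still, together with 1 of the C0 triplicates. The remaining groups came from several periods. Period and group therefore cannot be told apart between C4 and the operated groups, and PH against sham at 10 and 20 h sets mixed PH groups beside sham groups of 1 period. X4 was analysed with replicates 4 to 6 and S4 with replicates 1 to 5, so the balance of periods at 4 h is not known. Alternatives were another pseudocount, no filter, scaling to a common median, other samples in the fit, a block on the replicate number, no variance trend and the removal of each replicate number. Several were chosen after seeing the data: parts of C0 as the control of C4, parts of S4, replicates 4 to 6 of X10 and X20, X10 without replicate 6, and all settings for the pathway lists and companions.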

Additional observations from a re-analysis of the deposited data

Results flagged for a closer look

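The 8 genes were screened in the groups of 4 to 10 livers for single livers far from the others (Dixon's test at 95%). Of 64 combinations of gene and group, 3 stood out, and chance alone marks about 1 in 20. Pdk4 in X10 replicate 6 was 1.69 RPKM, with 19.1 RPKM in the nearest of the other 5 livers. Ppara in X1 replicate 6 was 7.09 RPKM, with 10.4 RPKM in the nearest liver. Cyp4a14 in X36 replicate 1 was 198 RPKM, with 428 RPKM in the nearest liver.

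The difference between PH and sham in Pdk4 was larger at 4 h than at 1 h by 3.88 on the log2 scale in the test of the difference itself (limma, adjusted p = 0.00127), with X4 above all S4 livers in 3 of 3 livers and X1 and S1 overlapping.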

How the results depend on the processing

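The 79 called values of the 8 genes were recomputed 1241 times. In 1127 recomputations the call held, in 114 it was lost and in 0 the sign turned, and 45 of the 79 held in every setting. The 169 uncalled values were recomputed 2375 times, and the sign turned in 152. In 2 of these the value was then called, both against C0 replicates 7 to 9 alone, Ppara in X4 (0.95) and in S4 (0.76). The cause was not tested.

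Counts of the 8 genes called moved as follows. Scaling to the same median gave 5 in X4 against S4, 1 in X20 against S20, 1 in X1W, 4 in S1 and 2 in S20 against C0, 1 in S4 against C4, and 2 and 1 for the change from 1 to 4 h and from 20 to 48 h. A pseudocount of 1 gave 2 in X10 against S10, 1 in X20 against S20 and 1 in S4 against C4. Without the filter, X20 against S20, X1W against C0 and X44 against X20 gave 1 each. Fitting the compared groups only gave 1 in X20 against S20, X1W and S48 against C0, S4 against C4 and X44 against X20, and 0 in X72 against X48. Without the variance trend X20 against S20 gave 1.
Sham replicates 1 to 3 gave 5 and replicates 4 and 5 gave 1 in X4 against S4. Replicates 1 to 3 of both groups gave 3 at 10 h and 0 at 20 h, and X10 without replicate 6 gave 2. C0 replicates 7 to 9 gave 5 in X48, 2 in X72 and 1 in S48, and C0 replicates 1 to 6 gave 1 in X1W and 2 in C4.
Leaving out 1 replicate number gave 1 to 2 in X10 against S10, 0 to 4 in X20 against S20, 1 to 4 in X44, 1 to 2 in X72, 1 to 2 in X1W, 3 to 6 in S10, 0 to 2 in S20 and 0 to 1 in C4 against C0, 2 to 5 in X4 and 3 to 5 in X28 against C4, 0 to 3 in X44 against X20 and 0 to 1 in X72 against X48.

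Of the other 81 pathway genes, leaving out 1 replicate number gave 0 to 2 calls at 1 h, 15 to 23 at 4 h, 5 to 20 at 10 h, 5 to 15 at 20 h and 16 to 26 at 48 h. The compared groups alone gave 13 at 4 h and 7 at 20 h, sham replicates 4 and 5 gave 8 at 4 h, replicates 4 to 6 gave 2 at 1 h and, post-PH against all sham, 9 at 10 h, and replicates 1 to 3 gave 7 at 20 h. Over all genes, a pseudocount of 1 gave 808 calls at 4 h (1330 in the report's fit), 678 at 10 h (1081), 640 at 20 h (1094) and 2762 at 48 h (4187), and the compared groups alone gave 16 at 1 h (100), 886 at 4 h and 675 at 20 h.

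Replicate numbers were not shown to pair samples. Same-numbered PH and sham livers deviated together by correlations from -0.186 to 0.273, beside -0.234 to 0.264 for livers of different numbers. With the replicate block, X10 against S10 gave 2 of the 8 genes, X72 against C0 2, X1W 1, S20 0, C4 2 and the change from 20 to 48 h 1, the other pathway genes gave 1 call at 1 h, and 12 of the 79 called values were lost.

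Precision is limited by groups of 2 and 3 livers, by a C0 group whose triplicates differ, and by low reads for Fgf21. Depth limits counting for Fgf21 and Ppargc1a, and in some libraries also for Pdk4 (down to 69.8 estimated reads in C4) and Klb (down to 81.9 in S4).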
